A study of Mus musculus with 12 samples.

Results

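Short transcripts are the rows of the deposited tables that are at most 300 bases long, and 53 of them were followed here, of 55419 transcripts in all. They were chosen by length, by a mean level of at least 2 CPM (estimated counts scaled to the library total) over the 12 libraries, and by position. Rows inside 7 ranges of neighbouring rows were left out, as were the 50 most abundant transcripts. Of 4550 rows up to 300 bases, 66 reached 2 CPM. Of these, 13 lay in the left-out ranges and 0 were among the 50 most abundant. The ranges are stretches whose transcripts had moved together in the Chd8 mutants in an earlier look at these data, so the genotype comparisons below were narrowed by their own outcome and are given as a description. Just inside the level limit stood uc012bey.1 (62 bases, 2.14 CPM) and just outside it uc008vaw.1 (108 bases, 1.96 CPM). At the length limit, uc009tay.1 (298 bases, 5.43 CPM) was inside and uc012ejb.1 (303 bases, 4.72 CPM) outside.

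The libraries came from mouse embryonic stem cells (ESC) grown in 2i, a culture medium with inhibitors that keeps ESC in naive pluripotency. The other cell type was neural progenitor cells (NPC), obtained by differentiation. For both there were wild-type (WT) cells, CHD8+/- cells (HET) and CHD8-/- cells (KO), with 2 libraries in each of 6 groups. CHD8 is a chromatin remodelling helicase, and the comparisons ask how its dose affects transcription before and after neural differentiation. Stranded libraries were made from total RNA depleted of ribosomal RNA. The libraries held 9062447 to 14766212 estimated counts. The labels do not say whether the libraries of a group were separate cultures or lines, so the tests weigh differences against a spread that could be technical only. The files do not pair the identifiers with gene names, and 0 of 55419 matched the name tables used here. Neither Chd8 nor markers of the cell types could therefore be read, and the genotype and cell type labels are taken as given. No sequence is printed for the same reason.

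Several kinds of RNA are this short. Small nuclear RNAs form the core of the spliceosome, small nucleolar RNAs guide the modification of ribosomal RNA, and microRNA hairpins are the precursors of microRNAs. Many carry no poly(A) tail, so they appear in total RNA libraries and are largely missed by poly(A) selection. CHD8 has been found in human cells with the activator Staf at the promoter of a spliceosomal small nuclear RNA gene. Which of these kinds each of the 53 transcripts belongs to is not known from the files.

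The 53 transcripts were 46 to 298 bases long, with a median of 118 bases. Most were scarce. Of the 53, 24 had a mean under 5 CPM, 23 had 5 to 20 CPM, 6 had over 20 CPM and 2 had over 100 CPM. The most abundant was uc012ath.1, a transcript of 110 bases. It stood at 1401 and 1320 CPM in the WT ESC libraries, 1218 and 859 in HET ESC, 1159 and 771 in KO ESC, 1330 and 1230 in WT NPC, 1153 and 1077 in HET NPC, and 967 and 994 in KO NPC. Its ranges in the 6 ESC and the 6 NPC libraries overlapped. The second, uc008spx.1 (275 bases), had 483 to 845 CPM in ESC with a median of 612, and 331 to 481 CPM in NPC with a median of 402. All 6 NPC libraries lay below all 6 ESC libraries. Next came uc012fpv.1 (145 bases), which ran from 88.7 to 216 CPM in ESC and from 49.8 to 94.6 CPM in NPC. The first 2 held 76.2% of the summed mean CPM of the 53.

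Levels of different transcripts can be compared only per length, which the deposited TPM values (transcript abundance scaled by effective length) provide. The effective length is the number of positions from which a fragment could have started. It depends on the fragment lengths of each library. For rows over 3000 bases, length exceeded effective length by 172 to 182 bases in ESC and 166 to 181 bases in NPC, and 37 of the 53 transcripts were shorter than the smallest of these values. Up to 100 bases (22 transcripts) the median effective length was 17.98 bases, or 25.2% of the length. Over 100 and up to 200 bases (18 transcripts) it was 34.5 bases (24.5%), and over 200 bases (13 transcripts) 118 bases (42.7%). Rows of 1000 to 3000 bases kept 91.6%. The divisor of the TPM is therefore small for these transcripts, and their median mean TPM was 209 while their median mean CPM was 5.46.

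The shortest transcripts also had the least stable divisor. For uc012fly.1 (46 bases) the effective length ranged from 7.37 bases in HET NPC replicate 1 to 11.95 bases in WT ESC replicate 2, a 1.62-fold range. In those libraries its CPM was 4.93 and 5.79, while its TPM was 1029 and 696, so the order of the libraries was reversed by the unit. For uc012bri.1 (47 bases) the range was 1.49-fold. The other 51 transcripts stayed under 1.3-fold, and rows of 1000 to 3000 bases had a median range of 1.01-fold. By TPM the transcript of 110 bases was again first, at a mean of 65744 TPM, and held 65.2% of the TPM of the 53. uc008spx.1 followed at 6457 TPM. A transcript of 58 bases came next at 5779 TPM, above uc012fpv.1, although its mean CPM was lower (56.7 against 94.5).

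**Figure D1:**
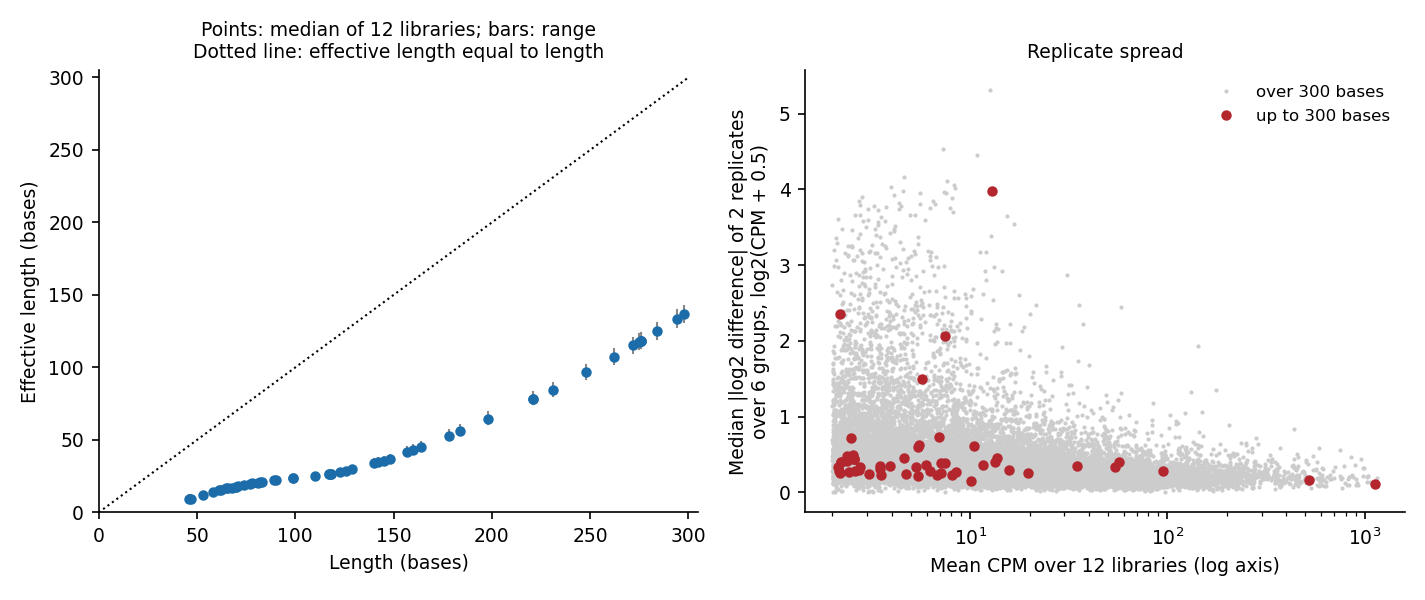
Left: effective length against length for the 53 short transcripts, both in bases, with points for the median of the 12 libraries and bars for their range; all lie far below the dotted line of equality. Right: median absolute log2 difference between the 2 libraries of a group against mean CPM (log axis); 4 of the short transcripts (red) lie above 1, and the other 49 lie among the longer transcripts (grey).

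By CPM, replicates of the short transcripts differed about as much as those of longer ones. The median over transcripts of the absolute difference between the 2 libraries of a group, on the log2(CPM + 0.5) scale and taken as the median over the 6 groups, was 0.35 for the 53 and 0.33 for 16209 longer transcripts chosen by the same level and position. Among transcripts of 2 to 5 CPM it was 0.35 for the short ones and 0.49 for the longer ones. At 5 to 20 CPM it was 0.36 for 23 short and 0.35 for 5956 longer transcripts. At 20 CPM and over it was 0.31 for 6 short and 0.23 for 5619 longer transcripts. The spread fitted by edgeR (median biological coefficient of variation) was 0.338 for 51 short features. It was 0.292 for 19944 other tested transcripts of at least 2 CPM. These values are descriptive. The steadiest short transcript was uc012ath.1, at 0.11.

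A few short transcripts switched between absent and present within a group. The difference passed 1 in 4 of the 53, or 7.55%, against 8.60% of the longer transcripts. The largest was 3.98, for uc007rwl.1 (221 bases), which had 22.5 and 0.835 CPM in WT ESC, 0 and 8.27 in HET ESC, 13.3 and 19.2 in KO ESC, 0 and 12.04 in WT NPC, 6.73 and 0 in HET NPC, and 29.3 and 42.8 in KO NPC. Only the KO groups had 2 libraries of like level. It was 1 of 3 transcripts with an exact 0 in at least 1 library. Because the counts are estimates that divide each read over all transcripts it fits, such swings cannot be told apart from reads assigned to a related transcript. In 2 sets of rows the counts were equal to 2 decimals in every library. One set held 4 rows of 276 bases, 3 of them members, and the other held 2 rows of 272 bases, 1 of them a member. Each set was tested as 1 feature, so the 53 transcripts gave 51 tests, and all 51 passed the filter on low counts.

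The short transcripts held a small share of the counts and a large share of the TPM. They summed to 0.300% and 0.273% of the counts in the WT ESC libraries, 0.219% and 0.186% in HET ESC, 0.223% and 0.229% in KO ESC, 0.203% and 0.194% in WT NPC, 0.203% and 0.182% in HET NPC, and 0.195% and 0.182% in KO NPC. Both WT ESC libraries lay above the other 10. Of the TPM they held 12.3% and 12.4% in WT ESC and 8.61% to 11.4% in the other libraries. The sum in NPC was 69.3% ± 5.16 of that in ESC for WT, 95.0% ± 13.0 for HET and 83.5% ± 4.32 for KO (SD carried over from 2 libraries a group). Without the 2 most abundant members it was 45.6% ± 4.05, 77.1% ± 5.03 and 76.5% ± 20.8, so the scarcer transcripts were further apart in WT and HET. The WT ESC libraries were also the shallowest of the ESC libraries, at 9062447 and 9840544 counts against 12884157 to 14766212 in HET and KO; the part of depth in their higher share was not tested. The 13 short rows in the left-out ranges, 2 of which share counts with members, summed to 114 to 171 CPM in ESC and 72.4 to 137 CPM in NPC.

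**Figure D2:**
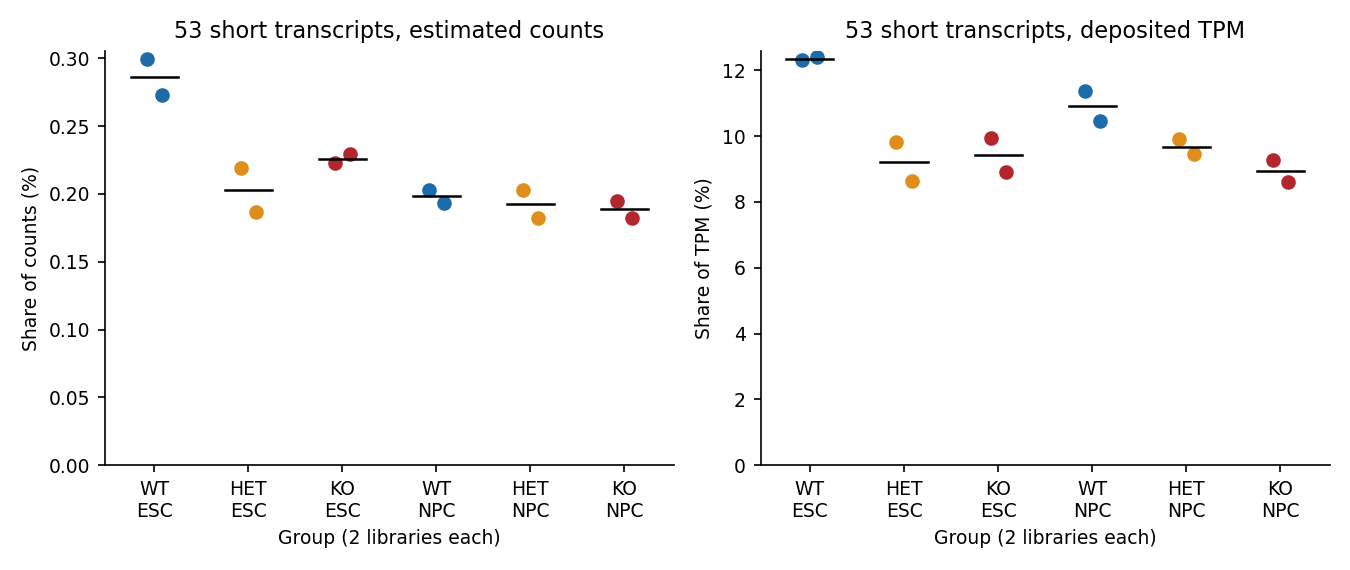
Summed share of the 53 short transcripts in each group, in percent of the estimated counts (left) and of the deposited TPM (right), with 1 point per library and a line at the mean of 2; both axes start at 0. The WT ESC libraries are highest in both units, at 0.300% and 0.273% of counts.

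The most abundant row of the whole series, which is not among the short transcripts, differed in its share of the counts. That row took 18.5% to 27.4% of the counts in ESC libraries and 10.1% to 16.6% in NPC libraries. The 50 most abundant rows took 35.1% to 46.4% in ESC and 23.5% to 31.4% in NPC. How far these rows moved the CPM of others was not tested. Tests used TMM scaling, which sets the bulk of transcripts level between libraries. Under library totals the median log2 fold change of all 30021 tested transcripts, NPC against ESC over the genotypes, was 0.32, and under TMM it was 0.02. Relative to that median the short transcripts stood at -0.94 and -0.96, a near equality that follows from how library scaling works, since it moves all transcripts by about the same amount. With limma on TPM, which also changes the divisor of each transcript, it was -0.72.

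Short transcripts were lower in NPC than in ESC. Over the 3 genotypes, 30 of 51 fell and 1 rose (edgeR quasi-likelihood test, adjusted p under 0.05), where 14.8% of all 30021 tested transcripts fell and 15.5% rose. Members had to reach a mean of 2 CPM, as 19944 of the other tested transcripts did, so the shares over all include scarcer transcripts. Some members met that limit only through the cell type where they were higher, which was not adjusted for. The median log2 fold change of the 51 was -0.94, a ratio of 0.522, and 44 of 51 were below 0, against 49.1% of all tested transcripts. This comparison of the 3 NPC means with the 3 ESC means was added after the 3 genotypes had been seen to move alike, so its count is not independent of that choice. When any library was left out, the median log2 fold change of the 51 was -1.01 to -0.76. In these bulk libraries, less of an RNA per cell and fewer cells holding it cannot be told apart. On TMM-scaled CPM, 22 of 51 lay in all 6 NPC libraries below all 6 ESC libraries and 1 lay above, where 8.04% and 9.88% of all tested transcripts did. On plain CPM these were 8 and 1, where 4.07% and 14.8% did.

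**Figure D3:**
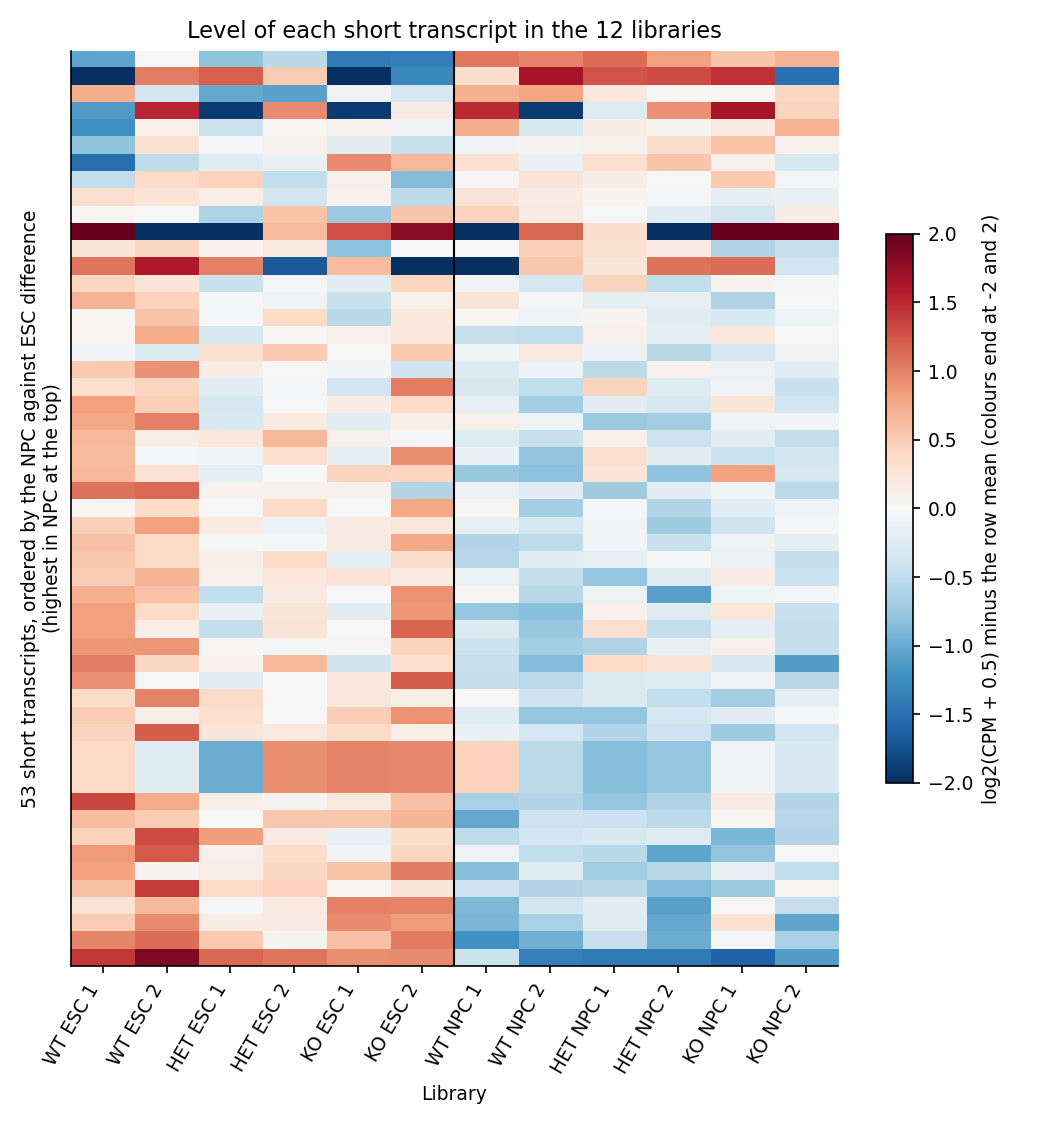
Level of each of the 53 short transcripts (rows) in the 12 libraries (columns, ESC left of the line and NPC right of it), as log2(CPM + 0.5) minus the row mean, with colours ending at -2 and 2. Most rows are redder in ESC than in NPC, the top row is the transcript that rose in NPC, and a few rows near the top alternate between libraries of a group.

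By genotype, the fall was called most often in WT. In WT cells 15 of 51 fell and 0 rose (edgeR, adjusted p under 0.05), where 5.33% of all tested transcripts fell and 6.83% rose, and the median log2 fold change was -1.24. In HET cells 3 fell and 1 rose, where 5.16% fell and 6.30% rose, with a median of -0.60. In KO cells 5 fell and 1 rose, where 6.42% fell and 6.59% rose, with a median of -0.84. The medians were below 0 in every genotype. Of the 51, 44, 42 and 42 were below 0, where 47.8%, 48.7% and 49.5% of all tested transcripts were. In all 3 genotypes 37 of the 51 were below 0, which was not counted over all tested transcripts. The share called lower was thus 5.88% of the short transcripts in HET, near that of all transcripts, and 9.80% in KO. At an unadjusted p under 0.05 there were 30, 19 and 20 of 51 in WT, HET and KO by edgeR, where 25.1%, 25.2% and 26.2% of all tested transcripts were. On plain CPM both NPC libraries lay below both ESC libraries for 36 of 51 in WT, 24 in HET and 24 in KO, where 17.5%, 17.7% and 17.3% of all tested transcripts did. They lay above for 3, 6 and 6, where 37.9%, 39% and 40.6% did. The counts were lower whichever compared library was left out. Such a fit has 1 library in that group, so lost power and dependence on a given library cannot be told apart. In WT, leaving out WT ESC replicate 1 or 2 left 9 and 7 calls, and leaving out WT NPC replicate 1 or 2 left 4 and 3. In HET the edgeR count was 2 and 1 without HET ESC replicate 1 or 2, and 0 without HET NPC replicate 1 or 2 (14 and 13 at an unadjusted p under 0.05). In KO the loss of KO ESC replicate 1 left 5 calls and that of KO NPC replicate 2 left 1, while the loss of KO ESC replicate 2 or KO NPC replicate 1 left 0 (9 and 17 at an unadjusted p under 0.05). DESeq2 called 29, 15 and 15 of 51 in WT, HET and KO in the full data, or 56.9%, 29.4% and 29.4%, where it called 22.8%, 22.7% and 23.7% of all transcripts with an adjusted p. Limma called 14, 6 and 4, or 27.5%, 11.8% and 7.84%, where it called 20.9%, 17.5% and 18.7% of all; the difference between these shares was not tested. Without TMM scaling the calls in HET were 1 lower and 1 higher, and in KO 2 lower and 1 higher. Of all tested transcripts, 3539 and 4081 were then called in either direction.

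The difference between genotypes was tested as an interaction. By edgeR 0 of 51 passed for HET and 0 for KO (adjusted p under 0.05), where 0.00333% of all tested transcripts passed in each. At an unadjusted p under 0.05 there were 2 for HET, where 5.22% of all tested transcripts were, and 5 for KO, where 9.16% were. DESeq2 called 0 and 2 of 51, where it called 0.974% and 3.87% of all transcripts with an adjusted p. Limma called 0 and 0, where it called 0.00333% and 0.00666% of all. The lower count of calls in HET and KO than in WT is thus not shown to be a different response. The interaction log2 fold changes of the 51 still had a median of 0.45 for HET and 0.38 for KO. Those of all tested transcripts were -0.02 and -0.06. Of the 51, 9 and 16 were below 0, where 51.5% and 52.7% of all were. With any compared library left out, the medians of the 51 were 0.22 to 0.51 and 0.22 to 0.75. This shift of the set was not tested, and both interactions share the WT libraries.

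Across lengths the direction was alike. Of the 22 transcripts up to 100 bases, 15 fell over the genotypes and 0 rose, with a median log2 fold change of -0.98. Of the 18 over 100 and up to 200 bases, 11 fell and 0 rose, with a median of -0.87. Of the 11 features over 200 bases, 4 fell and 1 rose, with a median of -0.37. The longest class also held all 4 transcripts with large swings between replicates. The difference between the classes was not tested.

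**Figure D4:**
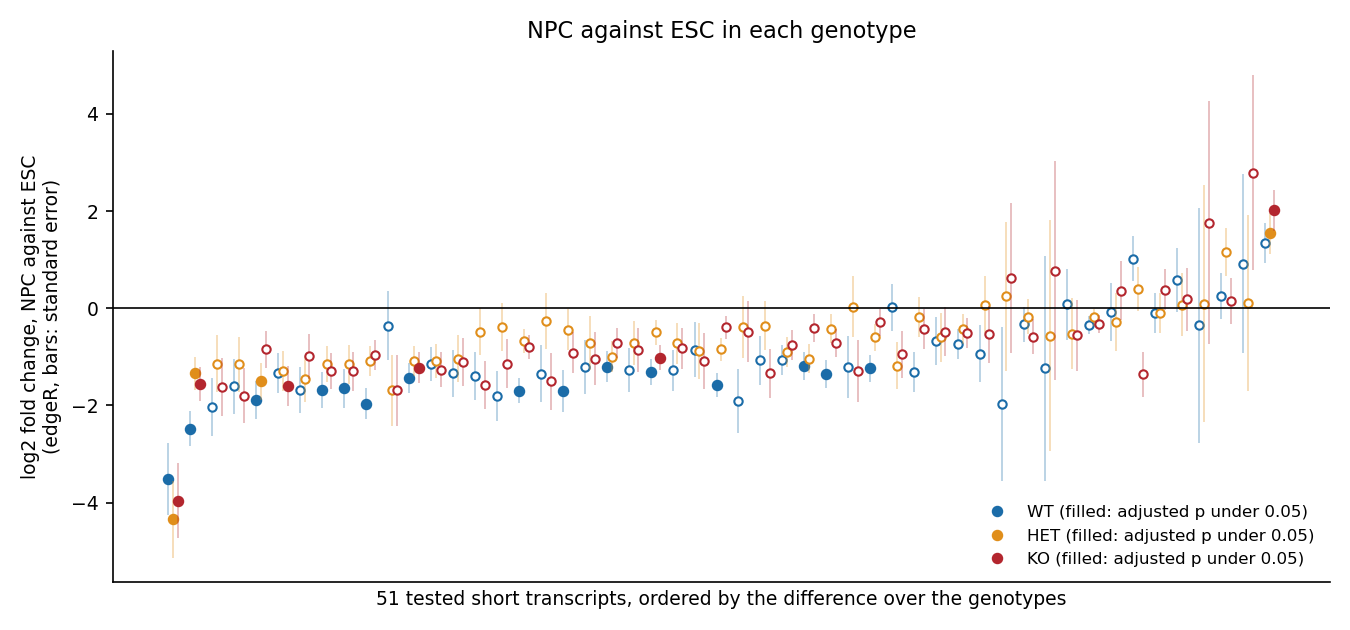
log2 fold change of NPC against ESC (edgeR, bars for the standard error) for the 51 tested short transcripts, in WT, HET and KO cells, ordered by the difference over the genotypes. Most points lie below 0 in every genotype, and filled points passed an adjusted p of 0.05 (15 in WT, 4 in HET and 6 in KO).

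2 transcripts were called lower in all 3 genotypes, a count that was not taken over all tested transcripts. The first was uc012bbh.1 (198 bases), which had 23.4 and 25.9 CPM in WT ESC, 17.0 and 12.2 in HET ESC, and 17.8 and 24.5 in KO ESC. It had 4.77 and 5.77 CPM in WT NPC, 8.37 and 5.63 in HET NPC, and 11.4 and 7.29 in KO NPC. All NPC libraries lay below all ESC libraries, with KO NPC replicate 1 the nearest. Its log2 fold change was -2.48 in WT (SE 0.358, edgeR adjusted p = 0.0041), -1.34 in HET (SE 0.347, edgeR adjusted p = 0.0433) and -1.56 in KO (SE 0.346, edgeR adjusted p = 0.0223). The call held in WT in each of 12 alternatives, while in HET it held in 4 and in KO in 8 of 12. The libraries whose loss ended it were each of the HET libraries (adjusted p = 0.0662 to 0.231) and, in KO, KO ESC replicate 2, KO NPC replicate 1 and KO NPC replicate 2 (adjusted p = 0.0611 to 0.14).

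The second, uc012ewc.1 (83 bases), lay below the level that the rule for named transcripts asks for and was chosen after its values had been seen. It had 41 and 62 counts in WT ESC, 47 and 46 in HET ESC and 44 and 46 in KO ESC. In NPC it had 11 and 3 counts in WT, 2 and 2 in HET and 1 and 4 in KO. On the CPM scale it ran from 3.09 to 6.30 in ESC and from 0.110 to 0.888 in NPC, with no overlap. Its mean of 2.18 CPM passed the limit of 2 CPM only through the ESC libraries. The gap and the low adjusted p below therefore follow in part from how members were chosen. The edgeR adjusted p was 0.0188 in WT, 0.0112 in HET and 0.0134 in KO, and 0.000348 over the genotypes, the lowest of the 51. Over the genotypes the call held in each of 19 alternatives. Within a genotype it ended without WT ESC replicate 2 or WT NPC replicate 2, and without HET NPC replicate 1 or 2. In KO it ended without KO ESC replicate 2 or KO NPC replicate 1. With the compared groups fitted alone it ended in WT and KO (edgeR adjusted p = 0.0953 and 0.0567). In HET it then held (edgeR adjusted p = 0.0433). Its fold is not given, since the counts in NPC were so few.

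In WT the other transcript named for its fall was the abundant uc012fpv.1. It had 216 and 142 CPM in WT ESC and 53.9 and 56.9 in WT NPC. The log2 fold change was -1.96 (SE 0.31, edgeR adjusted p = 0.00633). Its groups did not overlap in WT, but KO NPC replicate 1, at 94.6 CPM, lay within the range of the ESC libraries. The call ended without WT NPC replicate 1 (adjusted p = 0.0516) and with the WT libraries fitted alone (adjusted p = 0.0524). The next row of the tables held another member of nearly equal length, 148 bases, with 93.1 and 94.1 CPM in WT ESC and 37.7 and 31.6 in WT NPC.

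Among the calls in the mutants, uc012ads.1 (164 bases) had 10.2 and 10.6 CPM in HET ESC and 5.03 and 3.90 in HET NPC, and its log2 fold change was -1.50 (SE 0.387; edgeR, adjusted p = 0.0422). It was lower in WT too, at 5.57 and 4.87 CPM in NPC against 11.6 and 20.8 in ESC (edgeR adjusted p = 0.0178). That WT result held in 8 of 12 alternatives. It no longer passed when WT ESC replicate 2 or either WT NPC library was left out. In KO cells it had 7.74 and 9.07 CPM in ESC and 4.40 and 7.68 in NPC, which missed the threshold (edgeR adjusted p = 0.209). The call in HET held in 4 of 12 alternatives and ended without any of the 4 HET libraries. uc007bvm.1 (68 bases) had 10.4 and 14.5 CPM in KO ESC and 6.05 and 4.72 in KO NPC, and its log2 fold change was -1.60 (SE 0.407; edgeR, adjusted p = 0.038). That call held in 4 of 12 alternatives and ended without any of the 4 KO libraries.

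The transcript that rose was uc009tay.1, which at 298 bases is the longest member. It had 1.84 and 4.41 CPM in WT ESC, 2.29 and 2.85 in HET ESC and 1.33 and 1.37 in KO ESC. In NPC it had 9.66 and 9.18 CPM in WT, 10.1 and 8.11 in HET and 6.65 and 7.45 in KO. The ESC and NPC libraries did not overlap. The log2 fold change over the genotypes was 1.63 (SE 0.241, edgeR adjusted p = 0.00137), and the call held in each of 19 alternatives. Within a genotype it passed in KO, at 2.02 (SE 0.425, edgeR adjusted p = 0.0181), and barely in HET, at 1.54 (SE 0.415, edgeR adjusted p = 0.04997). In WT it stood at 1.34 (SE 0.414) and did not pass (edgeR adjusted p = 0.0761). The HET call held in 4 of 12 alternatives and the KO call in 7 of 12. The HET call ended without any of the 4 HET libraries, and the KO call without any of the 4 KO libraries.

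The most abundant short transcript differed less. Over the genotypes uc012ath.1 had a log2 fold change of -0.29 (SE 0.105) and did not pass (edgeR adjusted p = 0.0738). uc008spx.1 fell by 0.94 on the log2 scale (SE 0.149, edgeR adjusted p = 0.00213). Within a genotype it passed in WT and KO (edgeR adjusted p = 0.0159 and 0.0386) but not in HET (edgeR adjusted p = 0.29). The WT call ended without WT ESC replicate 1 or either WT NPC library, and the KO call without KO ESC replicate 2 or either KO NPC library. The KO call held in 5 of 12 alternatives. By edgeR it also ended with library totals, the replicate block and the KO libraries fitted alone (adjusted p = 0.0823, 0.0633 and 0.132). It ended with limma on TPM as well (limma adjusted p = 0.108). The shortest members, uc012fly.1 and uc012bri.1, stood at 0.07 (SE 0.239) and -0.36 (SE 0.207), with edgeR adjusted p of 0.915 and 0.234.

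None of the 51 passed the edgeR test between genotypes of either cell type (adjusted p under 0.05). In ESC the share of all tested transcripts that passed was 0.0333% for HET against WT, 1.21% for KO against WT and 0.00333% for KO against HET, and in NPC it was 0.00999%, 0.213% and 0.00666% in the same order. At an unadjusted p under 0.05, 6, 5 and 3 of the 51 differed in ESC and 1, 2 and 1 in NPC. Of all tested transcripts, 8.67%, 14.3% and 9.30% did so in ESC and 7.90%, 12.7% and 7.38% in NPC. DESeq2 called 1, 3 and 1 of 51 in ESC, or 1.96%, 5.88% and 1.96%, where it called 4.08%, 10.3% and 4.65% of all transcripts with an adjusted p. In NPC it called 0 in each comparison, where it called 3.53%, 8.64% and 2.81% of all. Limma called 0 throughout, where it called 0.05%, 0.743% and 0.00999% of all in ESC and 0.11%, 1.44% and 0.02% in NPC.

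In ESC the short transcripts lay lower in HET than in WT more often than not. Of the 51, 41 were below 0 in HET against WT, with a median log2 fold change of -0.50, where the median of all tested transcripts was 0. In KO against WT 31 were below 0 with a median of -0.22, and in KO against HET 18 were below 0 with a median of 0.28. On CPM both HET libraries lay below both WT libraries for 28 of 51, where 21.8% of all tested transcripts did, and both KO libraries did so for 22, where 27% did. By edgeR 0.0133% of all tested transcripts passed as lower in HET. In KO 0.49% passed as lower and 0.716% as higher. The median of KO against WT changed sign, to 0.03, without KO ESC replicate 1, and was -0.49 without KO ESC replicate 2. That of KO against HET was 0.00 without KO ESC replicate 2. In HET against WT it stayed between -0.52 and -0.35 when any library was left out. Both comparisons share the WT libraries, which were the shallowest in ESC. The lowest adjusted p in KO against WT ESC was 0.0569, for a transcript of 160 bases with 31.3 and 32.4 CPM in WT, 15.2 and 15.3 in HET and 15.1 and 9.41 in KO. Its WT ESC libraries lay above all other 10 libraries.

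In NPC the median log2 fold change in HET against WT was 0.04, with 23 of 51 below 0, but -0.02 with library totals, -0.04 with limma on TPM and -0.08 without HET NPC replicate 1. In KO against WT it was 0.25, with 16 below 0. Both KO libraries lay above both WT libraries for 9 of 51, where 19.7% of all tested transcripts did, a near-equal share. They lay below for 8, where 29% did. By edgeR 0.0766% of all tested transcripts passed as higher and 0.137% as lower. In KO against HET the median was 0.17, with 18 below 0. Without WT NPC replicate 2 the KO against WT median was 0.03, and it was 0.06 without KO NPC replicate 1. The most abundant short transcript, uc012ath.1, was 1280 ± 70.8 CPM in WT, 1115 ± 54.1 in HET and 980 ± 19.0 in KO NPC (SD, n = 2), with no overlap between the groups. In ESC it was 1360 ± 57.1 CPM in WT, 1038 ± 254 in HET and 965 ± 274 in KO, where HET and KO overlapped. In the fit its log2 fold change in KO against WT was -0.30 in NPC (SE 0.182, edgeR adjusted p = 0.557) and -0.33 in ESC (SE 0.182, edgeR adjusted p = 0.461), so neither passed.

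**Figure D5:**
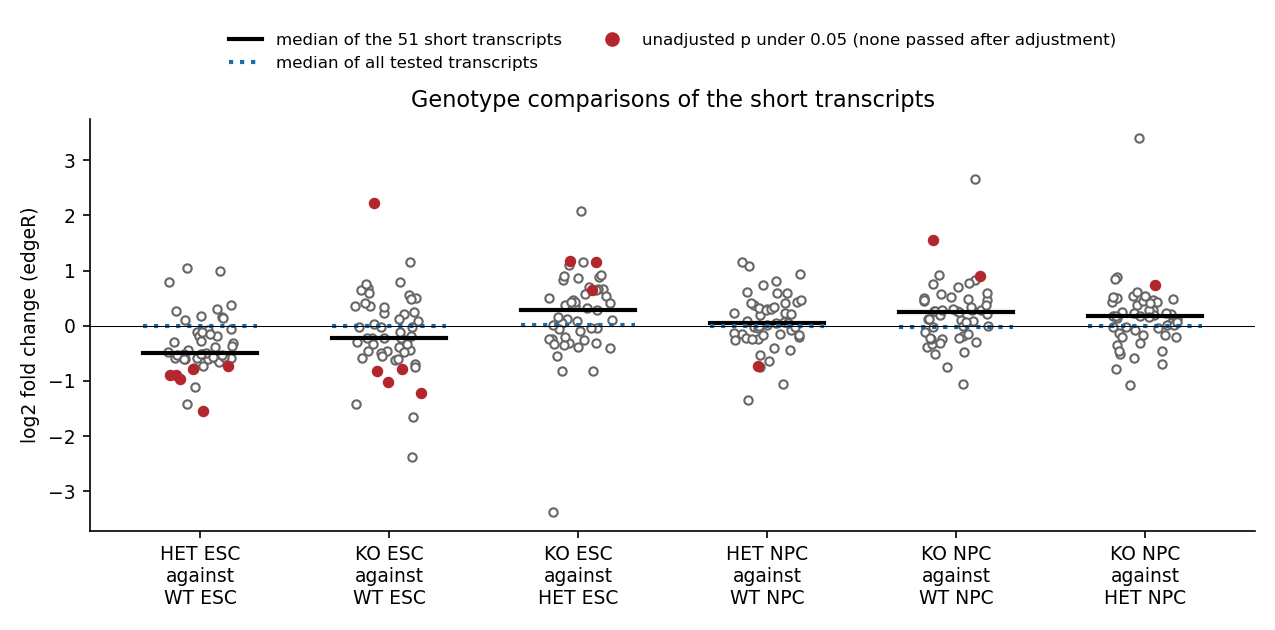
log2 fold change (edgeR) of the 51 tested short transcripts in the 6 genotype comparisons, 1 point each and spread sideways for clarity, with red points at an unadjusted p under 0.05. The median of the short transcripts (black) lies at -0.50 in HET against WT ESC and within 0.28 of 0 in the other comparisons, and no point passed after adjustment.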

How the data were processed

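RNA was measured in 12 libraries, 2 in each of 6 groups. Per the submitters' processing notes, cutadapt 1.16 and kallisto were used with mouse build mm9 (kallisto's version: not given in the sources used here). Per the file headers, each deposited file lists transcripts with length, effective length, estimated count and TPM. Estimated counts, in which the authors' kallisto run shares reads among compatible transcripts, were rounded. The deposited TPM values were used for levels per length and 1 alternative test.

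Rows equal to 2 decimals in every library (at least 12 counts in all; 244 rows in 95 sets) were summed to 1 feature. With edgeR 4.0.16 in R 4.3.3, low features were removed (filterByExpr, minimum count 10), libraries were TMM-scaled, and the rest were given 1 quasi-likelihood fit (glmQLFit, robust) that spans the 12 libraries. Tests of 30021 features were two-sided, and p was adjusted by Benjamini-Hochberg with a threshold of 0.05. SE is the log2 fold change over the square root of F. DESeq2 1.42.0 and limma 3.58.1, on log2(TPM + 1), were alternatives, as were other scalings, no filter, no merging, a replicate block, fewer groups and each library left out. With a library left out, the other of its group is assumed to vary like the other groups.

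Named per comparison were the members with the largest rises and falls, at most 2 each way (adjusted p under 0.05, mean CPM at least 5, no overlap), and members extreme in level, length or spread. Members and lists were chosen with earlier results of these data known. Planned marker lists were not run, because no identifier matched a symbol.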

Additional observations from a re-analysis of the deposited data

How the results depend on the processing

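Of 19 alternatives run on the comparison over the genotypes, all kept its count of calls within 1.5 times of 31. It was 23 with library totals and 37 with DESeq2. Over all tested transcripts 9317 and 11770 were then called, and 9078 in the main fit. With a library left out, the median log2 fold change of the 51 was -1.01 to -0.76. The counts of calls in WT, HET and KO NPC against ESC (15, 4 and 6) were 29, 15 and 15 with DESeq2. With the compared groups fitted alone they were 5, 2 and 1. Over all tested transcripts the counts were 3652, 3442 and 3905 in the main fit and 6571, 6674 and 6971 with DESeq2. With the compared groups alone these were 913, 1210 and 2468. Library totals gave 2 in HET and 3 in KO, where 3539 and 4081 of all were called. HET had 1 without the low-count filter, where 2910 of all were called. Leaving out 1 library gave a median log2 fold change of -1.30 to -1.10 in WT. It gave -0.77 to -0.41 in HET and -1.15 to -0.46 in KO. Same-numbered libraries are not said to share a culture, and the replicate differences of the groups correlated at r = -0.222 to 0.221 over pairs of groups, so the numbers were not taken as pairs. With the replicate block the counts were 12, 1 and 4, where 3152, 3043 and 3425 of all tested transcripts were called. The block ended the calls of uc009tay.1, uc012ads.1 and uc012bbh.1 in HET (adjusted p = 0.0603, 0.0523 and 0.0652) and of uc007bvm.1 and uc008spx.1 in KO (adjusted p = 0.0614 and 0.0633). Genotype counts by edgeR were 0 under each scaling, filter, block and left-out library run; DESeq2 gave 1, 3 and 1 in ESC for HET against WT, KO against WT and KO against HET, and 2 for the KO interaction. No call named for a single transcript changed direction in these alternatives. Transcripts named only for level, length, spread or a limit were not followed there.

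The summed level in NPC as a percentage of ESC in WT, HET and KO moved from 69.3, 95.0 and 83.5 to 57.7, 77.5 and 64.7 with TMM-scaled libraries, and to 45.6, 77.1 and 76.5 without the 2 most abundant members. With deposited TPM it was 88.4 in WT, 105 ± 10.2 in HET and 94.9 in KO, so the HET sum turned from below to above that of ESC. KO against WT in ESC moved from 78.9 to 89.7 with TMM scaling. In NPC, KO and HET against WT moved from 95.1 and 97.1 to 81.8 and 88.6 with TPM, and to 124 and 106 without the 2 most abundant members. The transcripts without overlap between ESC and NPC, in either direction, numbered 9 on plain CPM and 23 with TMM scaling. On plain CPM 14.8% of all tested transcripts lay above and 4.07% below in NPC, and with TMM scaling 9.88% and 8.04%. With TPM the count was 5, and no share over all tested transcripts is given beside it. The cause of these shifts was not tested. Library totals and the alternatives for summed levels and overlap were chosen after seeing the data. The scarcest member, uc012bey.1, had 13 to 44 counts per library, which limits the precision of its fold changes.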
